A study of Mus musculus with 28 samples.

Results

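A set of 41 genes of 17700 measured in mouse peripheral nerve was close to silent just before birth and clearly read 1 day after it. Members were chosen by their mean level at embryonic day 17 (E17), under 1 CPM (read counts scaled to a common library total), and at postnatal day 1 (P1), 5 CPM or more. The difference between E17 and P1 is therefore the way the genes were selected and not a result, and what follows describes who they are and where their levels went from P5 to the young adult at P60. The best-read members included Ncmap, Gldn and Gjb1, genes of the myelinating Schwann cell, with the transporters Slc36a2 and Slc9a3. By P60, 29 of the 41 were still at 5 CPM or more, 5 lay between 1 and 5 CPM and 7 had returned to under 1 CPM.

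The 28 libraries, 4 at each of 7 stages from E13 to P60, came from polyadenylated RNA of untreated wild-type C57BL/6J mice of both sexes. Stages are named as on the labels, which leave out the fraction of a day that the study gives for both embryonic ages. An E13 or E17 library pooled 2 embryos, and a postnatal library was 1 mouse. E13 tissue was various peripheral nerves rather than the sciatic nerve named on the label, and from E17 on the sciatic nerve was stripped of epineurium and perineurium, so E13 levels are set beside the others without a test. These are whole tissue RNA pools, in which fewer cells of a type and less RNA per cell cannot be told apart.

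Library totals ran from 13899895 to 37662780 counts. Of 10 Schwann lineage markers, which include the member Ncmap, 3 were called higher and 2 lower at P1 than at E17, with a median log2 fold of 0.11. Their sum was between 3978 and 4364 CPM at E17 and between 8350 and 14750 CPM at P1, mostly through Mbp (means of 1117 and 7756 CPM). Of 12 skeletal muscle markers measured, 8 were called lower and none higher at P1, with a median log2 fold of -2.71, and their sum was between 14.8 and 43.5 CPM at E17 and between 10.6 and 16.2 CPM at P1. P1 replicate 1 stood apart by a dependence on GC content (a slope of -0.57 log2 units per 10 GC points, against -0.21 to 0.26 in 25 other libraries), and so did E13 replicates 1 and 4. Without P1 replicate 1 the rule took 43 genes, 40 of them shared with the 41.

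Around birth, Schwann cells that have sorted out a single large axon leave the promyelinating state and begin to wrap it. The transcription factor Egr2, acting with Sox10, switches on genes for lipid synthesis and for the proteins of compact myelin, of the paranodal loops and of the node of Ranvier. The node is the short gap in the sheath where sodium channels gather under contact by Schwann cell microvilli. The nerve also holds fibroblasts, vessels and resident immune cells, each with a postnatal programme of its own. Some members are known from such cells elsewhere, and which cells of the nerve held the members' RNA was not tested.

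Promoter windows from RefSeq (GRCm38.p6) were found for 25 of the 41 members. The 6 shown here are the 250 bases before the listed start nearest to the annotated one, on the strand of the gene, for the 3 members on the myelin list, for Slc9a3, which was highest at P1, and for Abca12 and Cd96, which were among the 4 named members with the largest falls after P5. Capitals mark matches, on either strand, to 6 short strings for the factors EGR, POU, SOX and TEAD, the E-box and the TATA box.
Ncmap, chr4:135398228-135398477, minus strand: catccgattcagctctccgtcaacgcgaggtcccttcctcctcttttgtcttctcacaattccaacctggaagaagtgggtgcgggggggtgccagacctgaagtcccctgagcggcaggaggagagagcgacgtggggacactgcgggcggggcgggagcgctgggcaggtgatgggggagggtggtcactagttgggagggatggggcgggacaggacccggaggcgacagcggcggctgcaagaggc
Gldn, chr9:54286236-54286485, plus strand: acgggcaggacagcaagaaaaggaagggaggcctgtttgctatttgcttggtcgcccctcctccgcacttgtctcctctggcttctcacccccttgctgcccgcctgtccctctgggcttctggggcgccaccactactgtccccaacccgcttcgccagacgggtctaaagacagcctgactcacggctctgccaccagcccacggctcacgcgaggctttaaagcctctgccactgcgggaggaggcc
Gjb1, chrX:101376126-101376375, plus strand: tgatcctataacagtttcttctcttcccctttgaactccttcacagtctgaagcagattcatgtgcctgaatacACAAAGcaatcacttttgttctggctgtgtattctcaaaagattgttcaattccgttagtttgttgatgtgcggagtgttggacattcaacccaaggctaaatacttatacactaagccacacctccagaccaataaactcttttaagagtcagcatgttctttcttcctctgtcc
Slc9a3, chr13:74121163-74121412, plus strand: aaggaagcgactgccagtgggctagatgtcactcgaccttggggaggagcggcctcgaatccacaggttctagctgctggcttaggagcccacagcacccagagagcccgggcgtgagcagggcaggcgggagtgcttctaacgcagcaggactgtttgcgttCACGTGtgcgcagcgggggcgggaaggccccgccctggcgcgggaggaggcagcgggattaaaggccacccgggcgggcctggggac
Abca12, chr1:71414911-71415160, minus strand: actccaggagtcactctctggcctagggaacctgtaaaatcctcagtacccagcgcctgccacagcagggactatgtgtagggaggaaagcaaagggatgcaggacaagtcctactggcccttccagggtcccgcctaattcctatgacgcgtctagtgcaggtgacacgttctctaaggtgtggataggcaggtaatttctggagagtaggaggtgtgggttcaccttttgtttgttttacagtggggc
Cd96, chr16:46120249-46120498, minus strand: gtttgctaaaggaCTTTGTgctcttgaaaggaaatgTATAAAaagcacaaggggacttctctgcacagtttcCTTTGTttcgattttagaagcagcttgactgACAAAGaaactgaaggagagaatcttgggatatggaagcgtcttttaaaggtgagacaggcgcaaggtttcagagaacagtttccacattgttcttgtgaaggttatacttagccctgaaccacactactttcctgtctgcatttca

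The printed window of Gjb1 held the SOX letters once and that of Slc9a3 the E-box letters once. That of Cd96 held the SOX letters at 3 places and the TATA letters once, whereas Ncmap, Gldn and Abca12 held none of the 6 strings there. Gjb1 had 4 windows in all, of which 2 held the SOX letters, 1 the TEAD and 1 the TATA letters. Ncmap had 2, both without any of the strings. Which of the listed starts the nerve used was not tested. Over the 25 members with a window, 11 (44%) held the SOX letters, which were ACAAAG, in at least 1 window, beside 18.6% of 27025 genes in the table. Counted by window, the SOX letters were in 36.1% of 36 member windows and in 16.5% of all 32851 windows. The TEAD letters, GGAATG, were in 13.9% of member windows and 12.6% of all windows. For the E-box, CACGTG, the shares were 5.56% and 6.02%. For the TATA box, searched as TATAAA, they were 11.1% and 12.4%. No member window held the EGR string GCGTGGGCG, which was in 0.536% of all windows. None held the POU octamer ATGCAAAT either, which was in 1.6% of them. These matches describe letters in a window and say nothing on whether a factor binds there.

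At E17 the members had between 2 and 80 counts each over the 4 libraries together, and 25 of them were under 1 CPM in every E17 library. At P1, 33 were at 5 CPM or more in every library, and no member's P1 libraries overlapped with its E17 libraries, which is what the rule looked for. All 41 were called higher at P1 than at E17 where 6.31% of all genes were, and nothing is read from that count. The ratio of the P1 mean to the E17 mean ran from 6.6 (Ankfn1) to 475 (Slc9a3). Just inside the E17 limit lay Gm45221 (0.999 CPM), Fam107a (0.986 CPM) and Ndp (0.98 CPM), and just outside it Gpr176 (1.05 CPM), Pmel (1.15 CPM) and Sptb (1.17 CPM). Just inside the P1 limit lay Cd96 (5.03 CPM), Cxcl14 (5.17 CPM) and Nptx2 (5.31 CPM), and just outside it Tyrp1 (4.94 CPM), Nrip2 (4.91 CPM) and F5 (4.87 CPM).

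The number of genes that met such limits differed from step to step, and the steps are of unequal length. The same limits applied to the other neighbouring stages took 47 genes between E13 and E17, where the tissue differed too. They took 9 between P1 and P5. Another 33 were under the lower limit at P5 and over the upper one at P14, with 2 such genes at the step to P24 and 6 at the step to P60. In the opposite direction, from 5 CPM or more to under 1 CPM, 597 genes went between E13 and E17, where the tissue differed too, and 8 between E17 and P1. There were 0 such genes between P1 and P5, 2 at the step to P14, 2 at the step to P24 and 5 at the step to P60.

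Most members read higher at P5 than at P1, and their courses then parted. The summed level of the 41 was 21.6 ± 2.24 CPM at E17 (mean ± SD over 4 libraries, as for all levels), 1162 ± 152 CPM at P1, 2926 ± 53.6 CPM at P5, 4568 ± 236 CPM at P14, 4288 ± 402 CPM at P24 and 4477 ± 403 CPM at P60. Ncmap had the highest CPM of the members at each stage from P1 on. The P5 mean was above the P1 mean for 32 members and below it for 9. The median ratio of P5 to P1 was 2.14, from 0.437 (Rit2) to 7.15 (Fam107a). Across all genes, 4.05% were called higher and 1.79% lower at P5 than at P1, and 23 members and 1 member were. Those P1 libraries also chose the members, so the P5 to P1 values are a description. The stage of the highest mean was E13 for 1 member, P1 for 6, P5 for 9, P14 for 4, P24 for 9 and P60 for 12.

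**Figure D1:**
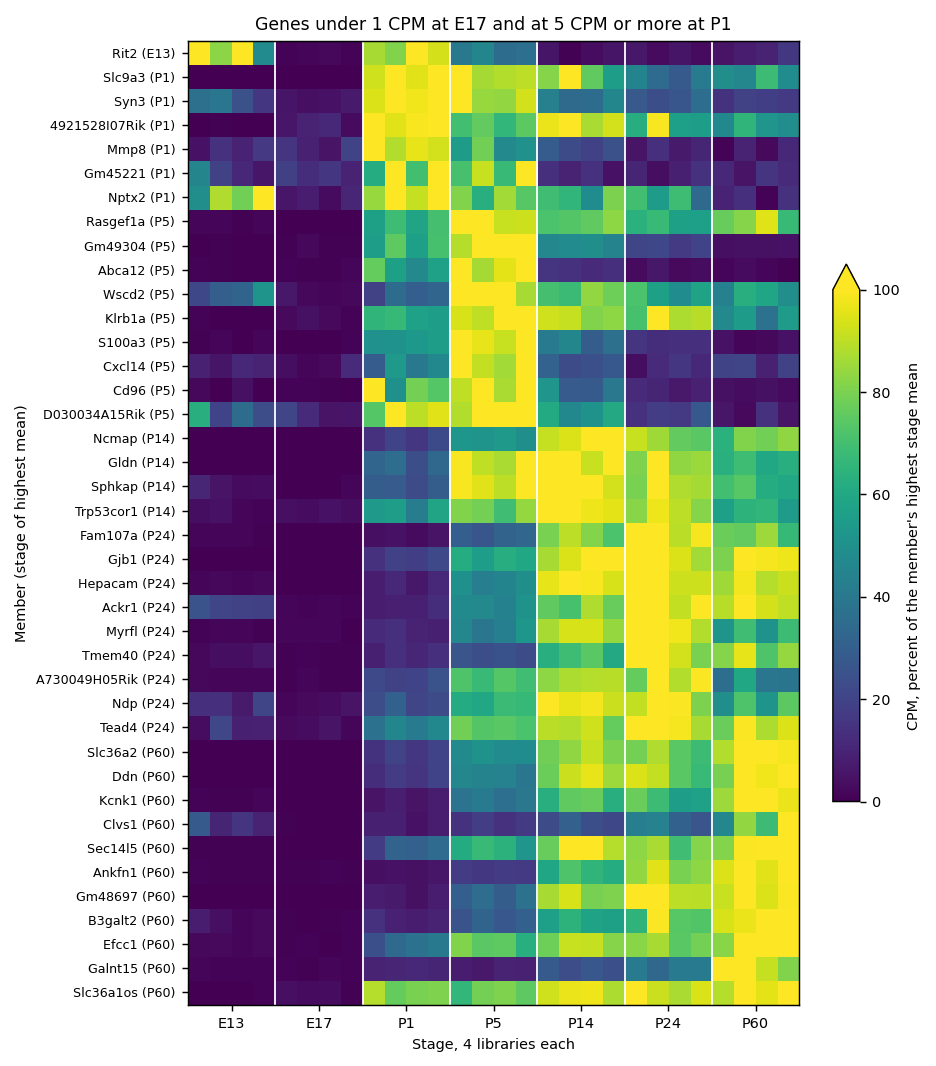
Level of 40 of the 41 members (rows, with the stage of the highest mean in parentheses) in each of the 28 libraries (columns, 4 per stage), as CPM in percent of the member's highest stage mean (colour, capped at 100). Nearly all rows are dark at E17. Most of the upper rows, with the highest mean at P5 or before, darken by P60. The lower rows, with the highest mean at P14 or later, have a higher mean at P60 than at P1. Some of them, Galnt15 included, are still dark at P5.

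The 4 comparisons tested were between stages that had no part in the selection (P5, P14, P24 and P60). The fit behind them took its spread from all 28 libraries, those of E17 and P1 included. A gene was called at a fold of at least 2 and an adjusted p under 0.05 over all 17700 genes in edgeR's quasi-likelihood test. The 4 comparisons share libraries with each other and are given side by side. From P5 to P14, 8 members rose and 9 fell, beside 7.11% and 4.91% of all genes, or 19.5% and 22% of the members. From P14 to P24 none rose and 7 fell (17.1%), where 1.51% of all genes rose and 1.14% fell. The count of 0 was also 0 by DESeq2 and by limma-voom, and 14 members had an unadjusted edgeR p under 0.05 in either direction. From P24 to P60, 2 members rose (4.88%) and 6 fell (14.6%), beside 2.55% and 3.41% of all genes.

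Over the whole interval from P5 to P60, 11 members rose (26.8%) and 12 fell (29.3%), where 15.4% of all genes rose and 11.3% fell. The other 18 were not called. The median log2 fold of the members was -0.04, with a sign that changed between alternatives, and that of all genes was -0.03. Among the 1075 other genes called higher at P1 than at E17, 22.4% rose and 20.8% fell over the same interval. Among 10968 other genes at 5 CPM or more at P1, 1.52% were under 1 CPM at P60, beside 17.1% of the members, and the levels at P1 were not matched between these groups.

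Markers of other cell types moved over the same interval. All 7 perineurial markers were called higher at P60 than at P5, and their sum went from between 188.8 and 239.8 CPM to between 1055 and 1523 CPM. Of the measured markers, 8 of 11 for adipocytes, 4 of 8 for pericytes and smooth muscle and 3 of 9 for fibroblasts were called higher and none lower. Of 8 erythroid markers, 7 were called lower and 1 higher. The part of these cells in the members' rises and falls was not tested.

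**Figure D2:**
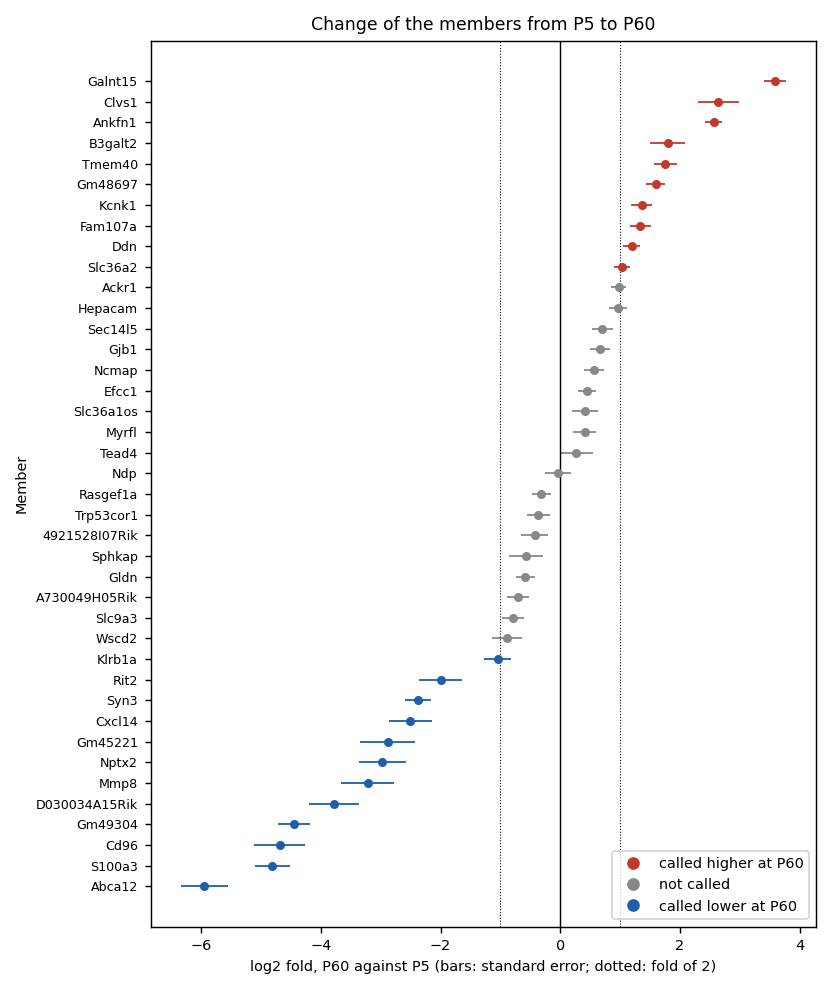
Log2 fold of 40 of the 41 members at P60 against P5 (horizontal axis) with its standard error, red where called higher, blue where called lower and grey where not called. The called rises extend to Galnt15 at 3.58 and the 12 called falls to Abca12 at -5.95, with the 18 uncalled members in between.

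Ncmap and Gldn, genes of the myelin sheath and the node, had the highest CPM of the members at P1. Ncmap (ENSMUSG00000043924), a membrane protein of non-compact myelin, read 0.698 ± 0.297 CPM at E17 and 236 ± 49.6 CPM at P1. Per kilobase of exon it was the best-read member at P1, at 106 CPM per kb, beside 34.1 for Slc36a2, 32.3 for Gldn, 19.9 for Slc9a3, 18.8 for Gm49304, 18.4 for Ddn and 17.6 for Gjb1. It stood at 680, 671, 696 and 647 CPM in the P5 libraries and at 831, 1050, 1022 and 1085 CPM at P60. All P60 libraries lay above all P5 libraries, yet the log2 fold of 0.57 ± 0.17 (SE) stayed under the fold of 2 (adjusted p 0.00694), and the highest mean was at P14, 1298 ± 120 CPM.

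Gldn (gliomedin, ENSMUSG00000046167), the microvillar protein that helps to gather sodium channels at the node, was at 155, 171, 115 and 160 CPM at P1. At P5 it read 475, 432, 418 and 512 CPM, and at P60 304, 330, 285 and 302 CPM. The groups did not overlap and P60 was the lower, with a log2 fold of -0.59 ± 0.16 (adjusted p 0.00268), short of the fold required for a call. Gjb1 (connexin 32, ENSMUSG00000047797), which forms channels across the uncompacted membranes of the sheath, went from 22.9, 31.5, 29.8 and 35.6 CPM at P1 to 96 ± 4.8 CPM at P5 and 152 ± 16.4 CPM at P60. Its log2 fold at P60 against P5 was 0.66 ± 0.17 (adjusted p 0.0022), again without a call.

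These 3 genes were the members on a list of 24 myelin genes, of which 23 were measured. In the list as a whole, 1 gene rose and 5 fell from P5 to P60 with a median log2 fold of -0.10, and 2 rose and none fell from P5 to P14. Apart from Mobp, the other measured genes of the list were already at 1 CPM or more at E17. Mbp, the myelin basic protein, was at 1117 CPM there, and Fa2h, which makes hydroxylated myelin lipids, was at 8.61 CPM. No member was on the list of 18 myelination regulators. Egr2 itself was at 27 CPM at E17 and 270.1 CPM at P1, and Sox10 at 326 and 354 CPM.

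**Figure D3:**
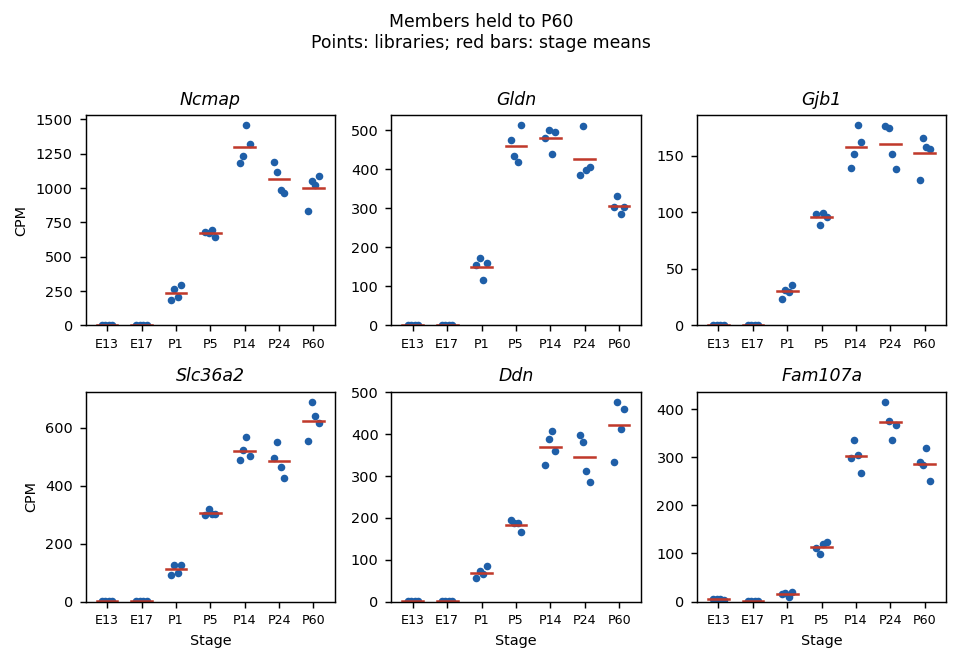
CPM (vertical axes, from 0, a scale for each gene) of Ncmap, Gldn, Gjb1, Slc36a2, Ddn and Fam107a in each library (points) with the stage mean (red bars) across the 7 stages. All 6 lie near 0 at E13 and E17, and at P60 every library of each gene lies above its P1 libraries.

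Carriers and channels made up the next group. Slc36a2, a proton-coupled carrier of small amino acids, was at 299, 318, 301 and 303 CPM at P5 and at 552, 690, 639 and 616 CPM at P60. The P60 libraries were all higher, with a log2 fold of 1.03 ± 0.14 (adjusted p 3.46e-07), and the fold fell just under the limit without P60 replicate 2 (0.98) and without a filter on low counts (0.99). Slc9a3, the sodium-proton exchanger best known from kidney and gut, took another course. It was highest at P1, at 102, 116, 105 and 116 CPM, and at P5 its libraries still lay between 94.8 and 113 CPM.

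From P14 to P24 Slc9a3 fell by 1.10 on the log2 scale (SE 0.19, adjusted p 0.000384), from 89.6, 117, 83.1 and 61.6 CPM to 49.5, 38.4, 31.1 and 44.7 CPM. The call rested on a fold near the limit, and was -0.94 without P14 replicate 2 and -0.99 without P24 replicate 3. At P60 it read 54.2, 50.7, 75.2 and 53.2 CPM, all above the P24 libraries, but the log2 fold of 0.51 ± 0.19 did not pass the test (adjusted p 0.0643). Against P5 its log2 fold was -0.79 ± 0.19 (adjusted p 0.000904), short of the fold of 2. Kcnk1, a potassium leak channel, rose from 89.9 ± 5.06 CPM at P5 to 231 ± 25.7 CPM at P60 (log2 fold 1.36 ± 0.17, adjusted p 1.93e-07).

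Signalling, anchoring and adhesion proteins followed. Ddn (dendrin), known from dendrites and from the podocytes of the kidney, rose from 196, 189, 187 and 165 CPM at P5 to 335, 478, 412 and 461 CPM at P60, a log2 fold of 1.20 ± 0.14 (adjusted p 4.82e-08). Most of that step lay before P14, where the fold of 1.01 sat on the limit and the call was lost in 6 of 17 alternatives. These were the fits without P5 replicate 4 (0.96), P14 replicate 2 (0.99) or P14 replicate 3 (0.96), the fit without a filter on low counts (0.99), limma-voom (0.98) and scaling by library size only (0.83). Fam107a, a stress and glucocorticoid inducible protein that binds actin, had the highest ratio of P5 to P1. It was at 15.8 ± 4 CPM at P1, 113 ± 10.3 CPM at P5 and 302 ± 28.1 CPM at P14, and reached 374 ± 33.1 CPM at P24.

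Its P5 to P60 log2 fold was 1.34 ± 0.18 (adjusted p 4.69e-07). Fam107a was the only member on a list of 14 glucocorticoid response genes, of which 12 rose and none fell from P5 to P60. Of that list 4 were called higher and 4 lower between E17 and P1. Hepacam, an adhesion protein of glia, rose from P5 to P14 by a log2 fold of 1.07 ± 0.15 (adjusted p 3.63e-06), a call lost with scaling by library size only (0.90), and from P5 to P60 its 0.96 ± 0.15 stayed short of a call. Ankfn1, named for its ankyrin and fibronectin domains, was at 22.3, 20.7, 22.6 and 22 CPM at P5 and at 123, 136, 124 and 135 CPM at P60. The groups lay far apart, with a log2 fold of 2.56 ± 0.14 (adjusted p 1.52e-14).

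Clvs1, a lipid-binding protein of clathrin-coated vesicles, had a P60 mean that rested in part on 1 animal. It was at 77.6, 80.7, 56.4 and 47.9 CPM at P24 and at 84.5, 152, 125 and 366 CPM at P60. All P60 libraries were higher, with replicate 4 far above the other 3, and the log2 fold of 1.47 ± 0.33 (adjusted p 0.00225) was 0.88 without that library (adjusted p 0.0352) and no longer called. The call was also lost when only the compared stages were fitted, at 1.49 (adjusted p 0.0704). Against P5 the call stayed in every alternative tried (log2 fold 2.64 ± 0.34, adjusted p 3.22e-07). Clvs1 overlaps Asph on the opposite strand, which had 43512 counts in all against 27910.

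Rasgef1a, an exchange factor for Ras family GTPases, was at 54.6 ± 6.04 CPM at P1 and 68.7 ± 9.98 CPM at P60. Sec14l5, a SEC14-like lipid-binding protein, Sphkap, an anchor for protein kinase A, Efcc1, Tead4, a DNA-binding partner of Yap1 and Wwtr1, and Myrfl were not called from P5 to P60, with log2 folds from -0.57 for Sphkap to 0.70 for Sec14l5. Tmem40, a transmembrane protein, was called higher at 1.75 ± 0.19 (adjusted p 1.14e-08). A730049H05Rik, a protein-coding gene that overlaps Adamts9 on the opposite strand, fell by 1.20 from P24 to P60 (SE 0.19, adjusted p 3.67e-05) after no call between P5 and P14 or between P14 and P24.

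Galnt15 and B3galt2 are enzymes that build sugar chains. Galnt15, which starts mucin-type O-glycans, was at 6.84 ± 0.388 CPM at P1 and 5.5 ± 0.876 CPM at P5, and stood at 79, 71.1, 60 and 53.4 CPM at P60. The P60 libraries were all above those at P24 (22.2 to 27.3 CPM), and the P5 to P60 log2 fold of 3.58 ± 0.19 (adjusted p 8.97e-15) was the highest among the members. B3galt2, a galactosyltransferase, rose from 24.3 ± 2.66 CPM at P5 to 84.4 ± 4.79 CPM at P60 (log2 fold 1.79 ± 0.30, adjusted p 1.2e-05). It overlaps Cdc73 on the opposite strand, which had 34127 counts in all against 18639. Wscd2 was not called in any of the 4 comparisons. Among secreted ligands, Ndp (norrin, a ligand of Fzd4) was at 7.55 ± 1.34 CPM at P1, 29.8 ± 1.14 CPM at P14 and 19.1 ± 4.1 CPM at P60, and was not called from P5 to P60 either.

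**Figure D4:**
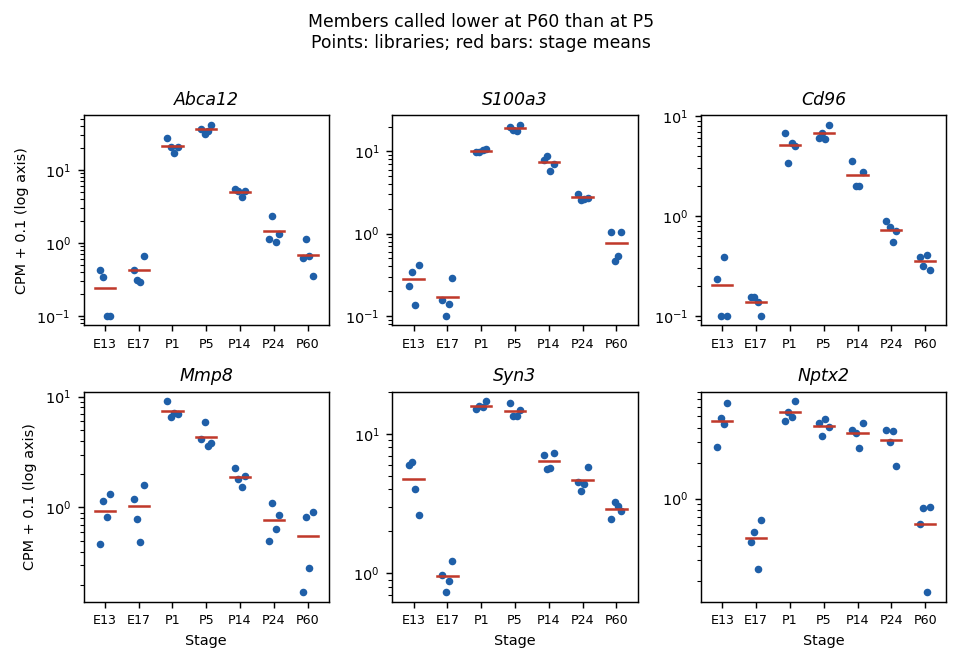
CPM plus 0.1 on log axes (a scale for each gene) of Abca12, S100a3, Cd96, Mmp8, Syn3 and Nptx2 in each library (points) with the stage mean (red bars). Each rises above its E17 level at P1, and each P60 library lies below every P5 library of the same gene.

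Another group of members faded after P5. Abca12, a lipid transporter known from the lamellar bodies of the skin, was at 27.4, 20.3, 16.8 and 20.5 CPM at P1 and at 36.8, 31, 34.3 and 41.2 CPM at P5. By P14 it was at 4.92 ± 0.513 CPM and at P60 at 0.512, 1.02, 0.56 and 0.251 CPM. It fell from P5 to P60 by 5.95 on the log2 scale (SE 0.40, adjusted p 1.01e-12), with no overlap of libraries. Of 11 keratinocyte markers 5 were measured, and their sum, mostly Krt10 and Sfn, was between 3.94 and 5.94 CPM at P1, 4.84 and 5.54 CPM at P5 and 6.43 and 7.97 CPM at P60. Trp63 was the one called over that interval, higher at P60 by a log2 fold of 3.47 (adjusted p 0.000992) at a mean of 1.31 CPM. S100a3, a calcium-binding protein of the hair cuticle, fell by 4.81 (SE 0.30, adjusted p 2.57e-13), from 19.6, 18.3, 17.4 and 20.8 CPM at P5 to 0.95, 0.363, 0.435 and 0.942 CPM at P60. It shares its strand and part of its span with Gm42674, so the split of reads between them is uncertain.

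Several fading members are known from immune cells. Cd96, a receptor of T and natural killer cells, had 3 counts in all at E17. It was at 6.63, 3.33, 5.25 and 4.9 CPM at P1, at 6, 6.7, 5.82 and 8.08 CPM at P5 and at 0.292, 0.218, 0.311 and 0.188 CPM at P60. It fell by 4.69 from P5 to P60 (SE 0.43, adjusted p 6.11e-10). Of 9 lymphocyte markers 3 were measured, and their sum was between 3.96 and 5.28 CPM at E17 and 2.01 and 3.54 CPM at P1. It was between 7.545 and 8.472 CPM at P5 and between 12.1 and 21 CPM at P60. That sum was mostly Ighm, a B cell gene, at 14.96 CPM at P60. Cd4, the only T cell marker of the list that was measured, averaged 0.282 CPM at P1, 1.15 CPM at P5 and 0.209 CPM at P60, a log2 fold of -2.38 from P5 to P60 (adjusted p 0.000179). The part of T cells in the Cd96 levels was not tested.

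Klrb1a, a lectin-like receptor of natural killer cells, was at 13.7 ± 1.25 CPM at P1 and 22.3 ± 2.05 CPM at P5. It fell to 10.8 ± 1.86 CPM at P60 (log2 fold -1.05 ± 0.23, adjusted p 0.000392), a call that sat on the fold limit. It was lost in 3 of 17 alternatives, without P60 replicate 3 (-0.94), with DESeq2 size factors (-0.995) and in the DESeq2 Wald test (-0.996). The gene has close relatives, among which reads may be divided. Mmp8, the neutrophil collagenase, was at 8.97, 6.5, 7.07 and 6.83 CPM at P1, at 4.04, 5.79, 3.47 and 3.71 CPM at P5 and at 0.0731, 0.726, 0.187 and 0.816 CPM at P60. It fell by 3.22 from P5 to P60 (SE 0.44, adjusted p 7.81e-07).

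The neutrophil list, of which Mmp8 is part, summed to between 2.17 and 6.1 CPM at E17 and to between 8.16 and 10.97 CPM at P1. Of its 10 measured genes 2, Mmp8 included, were called higher and none lower at P1 than at E17, with a median log2 fold of -1.06, and Mmp8 at 7.34 CPM made up most of the P1 sum. Means went from 0.164 to 0.561 CPM for Cd177, from 0.137 to 0.424 CPM for Retnlg, from 0.543 to 0.25 CPM for S100a8 and from 0.967 to 0.477 CPM for S100a9. From P5 to P60, 3 genes of the list fell and none rose, with a median log2 fold of -2.34, and the part of neutrophils in the Mmp8 levels was not tested. Cxcl14, a chemokine, fell from 12.1 ± 1.7 CPM at P5 to 2.13 ± 0.678 CPM at P60 (log2 fold -2.51 ± 0.36, adjusted p 1.49e-06).

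Syn3, a synapsin of synaptic vesicles, was at 14.9, 15.7, 15.5 and 17.1 CPM at P1 and at 2.34, 3.12, 2.92 and 2.7 CPM at P60. From P5 to P60 it fell by 2.38 (SE 0.21, adjusted p 3.53e-10). It spans Timp3 on the opposite strand, which had 504788 counts in all against 4979, so its values are uncertain where strand was not used. Nptx2, a neuronal pentraxin that clusters glutamate receptors, was at 4.48, 5.33, 4.85 and 6.58 CPM at P1, was at 3.02 ± 0.886 CPM at P24, and at 0.512, 0.726, 0.0622 and 0.754 CPM at P60. Its fall from P24 to P60 was 2.55 (SE 0.39, adjusted p 3.23e-05), with no overlap. Of 12 markers of neuronal cell bodies, all measured, 6 were called higher and 1 lower at P60 than at P5, with a median log2 fold of 1.64.

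Silence at E17 did not mean silence earlier for every member. At E13, 19 of the 41 were under 1 CPM and 5 were at 5 CPM or more. Clvs1 was at 51.6, 18.9, 27.8 and 18.4 CPM at E13 and no higher than 0.77 CPM in an E17 library. Rit2, a Ras-like GTPase of neurons, was at 17.2, 9.25, 12.9 and 5.42 CPM at E13, at 9.73, 9.08, 11.4 and 10.5 CPM at P1 and at 4.45 ± 0.53 CPM at P5. It was the one member highest at E13, and it fell from P5 to P60 by 2.00 (SE 0.36, adjusted p 3.85e-05).

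Ackr1, the atypical chemokine receptor of venular endothelium, was at 19.2, 15.9, 14.6 and 14.2 CPM at E13, at 0.907 ± 0.242 CPM at E17 and at 6.12, 6.75, 6.53 and 9.87 CPM at P1. It then stood at 70.6 ± 4.06 CPM at P60 (log2 fold over P5 0.97 ± 0.13, adjusted p 5.48e-07, short of the fold of 2). Endothelial markers summed to between 305 and 360 CPM at E17 and to between 177 and 207 CPM at P1. From P5 to P60 their sum went from between 242.5 and 279.9 CPM to between 508.9 and 556 CPM, with 3 of 8 called higher, none lower and a median log2 fold of 0.84. Their part in the Ackr1 levels was not tested. Ackr1 shares its strand and span in part with Cadm3, which had 185627 counts against 21805. Wscd2 was at 9.59 ± 3.61 CPM at E13. Markers of neuronal cell bodies summed to between 945 and 1846 CPM at E13, 72.6 and 76.1 CPM at E17 and 19.5 and 29.7 CPM at P1, and their part in the E13 levels was not tested.

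**Figure D5:**
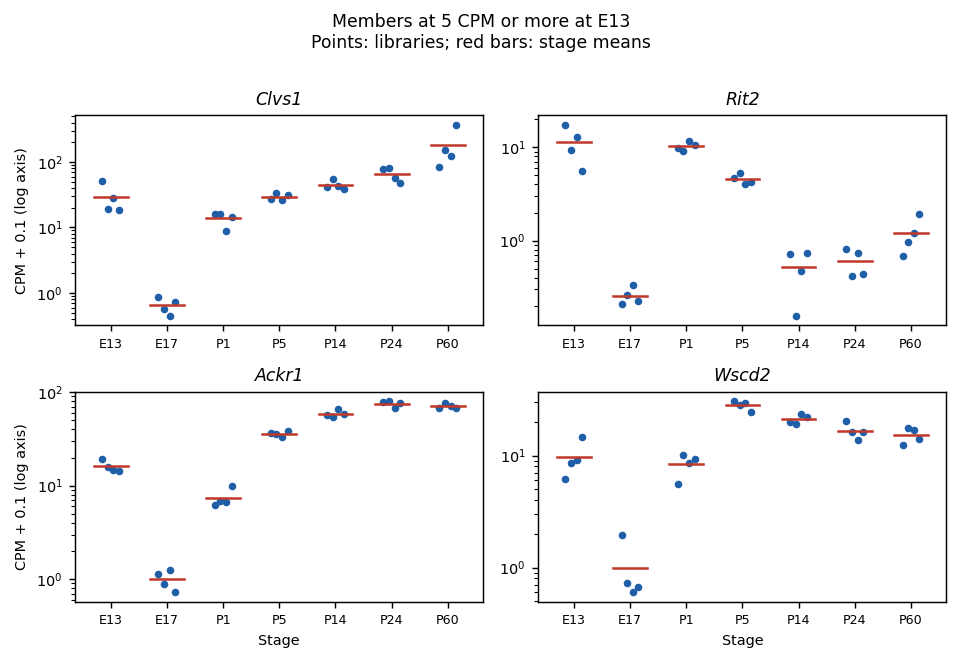
CPM plus 0.1 on log axes (a scale for each gene) of Clvs1, Rit2, Ackr1 and Wscd2 in each library (points) with the stage mean (red bars). In all 4 the E17 libraries lie below both the E13 and the P1 libraries, and Rit2 alone is far lower at P60 than at P1.

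The 7 members that are not protein-coding included Trp53cor1, a long RNA also known as lincRNA-p21, and Slc36a1os. Slc36a1os lies 6641 bases from Slc36a2 on chromosome 11 on the same strand, while its level kept to 11.7 ± 0.766 CPM at P1 and 14.3 ± 1.39 CPM at P60, with no call in any of the 4 comparisons. Gm49304 was called lower in each step and fell by 4.45 from P5 to P60 (SE 0.27, adjusted p 1.22e-13), reaching 1.69 ± 0.144 CPM. Gm48697 had 2 counts in all at E17 and rose by a log2 fold of 1.59 ± 0.16 from P5 to P60 (adjusted p 3.15e-09). Gm45221 and D030034A15Rik fell from P5 to P60, and 4921528I07Rik and Trp53cor1 were not called. Protein-coding genes were 82.9% of the members and 85.8% of all genes tested, with a median exon length of 3732 bases against 4015 and a median GC content of 49.9% against 49.5%.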

How the data were processed

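Members and gene lists were chosen with earlier results of these data known, and no pattern already seen there is offered as independent support. The values are the raw read counts per gene that the authors deposited for 28 libraries, without normalization. Per the methods and the submitters' processing notes, stranded poly-A libraries were read single-end, aligned with STAR 2.6.1c and counted with featureCounts. Those notes name GRCm38.p5, while the methods name GRCh38.p10, a human build. The strand and multi-mapping settings are not given in the sources used here, so overlapping or closely related genes are uncertain.

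Symbols and coordinates came from GENCODE M21 (GRCm38), which matched 41519 of 41605 identifiers. Genes were filtered by filterByExpr with stages as groups (17700 kept) and scaled by TMM. All libraries entered 1 quasi-likelihood fit (edgeR 4.0.16, R 4.3.3) with stage as the only term, and p-values were adjusted by Benjamini-Hochberg over all 17700 genes. The fit was also run on simulated counts with known changes, with the same spread for every gene and no fold minimum. That run does not test the call rule used here, and nothing is read from it. P-values measure the spread between libraries, and CPM levels of a few counts carry counting error besides. Alternatives were DESeq2 1.42.0, limma-voom (limma 3.58.1), other scalings, filters, thresholds and samples left out. Named members, among those whose symbol is not a clone or predicted-gene name, were the 10 highest at P1, the 2 highest at each peak stage, the 4 largest called rises and falls from P5 to P60, members on a list and those at the thresholds. Others are given after their values were seen, and the role groups were formed then. Results for 1 member and for 1 other gene are not reported here by name. Promoter windows were searched in 250 bases upstream for 6 strings.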

Additional observations from a re-analysis of the deposited data

Results flagged for a closer look

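In 133 groups of 4 libraries (the summed level of the members and 18 single members at each of 7 stages), 7 held a library whose gap to the nearest other, relative to the range, passed Dixon's critical value of 0.829, and chance alone flags about 1 in 20 such groups. Gldn at P24 was at 510.4 CPM in replicate 2, against 385.5 to 405.7 CPM in the other libraries. Galnt15 in the same animal was at 22.2 CPM, against 27.3 CPM in each of the others. Slc36a2 at E13 was at 1.98 CPM in replicate 2, against 1.12 to 1.26 CPM. Slc9a3 at P60 was at 75.2 CPM in replicate 3, against 50.7 to 54.2 CPM. Sphkap was at 1.63 CPM in E17 replicate 4, against 0.116 to 0.317 CPM, and at 19.3 CPM in P1 replicate 3, against 24.3 to 25 CPM. B3galt2 at P14 was at 54.5 CPM in replicate 2, against 47.8 to 48.6 CPM.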

How the results depend on the processing

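Of 55 calls of single members, 45 kept their direction and call in every alternative tried, and none of the 55 reversed. The median log2 fold of the members at P60 against P5, -0.04, was 0.01 with DESeq2 size factors and in the DESeq2 Wald test, and ran from -0.14 to 0.05 with 1 library left out, above 0 without P60 replicate 1 (0.05) or 3 (0.04). With no fold change minimum, 17 members were called higher and 10 lower at P14 than at P5, and from P14 to P24 1 higher and 7 lower. At P60, 4 were called higher and 10 lower than at P24, and 17 higher and 16 lower than at P5. The share of all genes called without that minimum was not computed, so nothing is read from these counts. Scaling by library size only gave 5 higher from P5 to P14, with the median of all genes moved to -0.17 on the log2 scale, and put the highest mean of 2 members each at E13 and at P14. From P24 to P60, 1 member was called higher when only the compared stages were fitted, and 1 to 3 with 1 library left out, the lowest without P60 replicate 4. Membership was 19 with a limit of 0.5 CPM at E17, 21 when every library had to meet the limits, and 23 with 10 CPM at P1, and it ran from 38 to 43 with 1 library left out. The replicate block gave 8 members lower from P14 to P24 in place of 7 and ended the call of Klrb1a from P24 to P60. In their deviations from the stage means, samples of the same replicate number correlated between -0.03 and 0.249 over the 4 tested pairs of stages, with replicate 2 over 0.1 in each, and between -0.20 and 0.57 over all pairs of stages, against -0.47 to 0.256 for other numbers. Not every pair was over 0.1, so the samples were taken to share only a number, and the block left the other counts as they were. Calls near the fold limit were lost for Hepacam (0.90 by library size only) and B3galt2 (0.85 by library size only, 0.97 without P5 replicate 1, 1.00 without P5 replicate 3, 0.98 without P14 replicate 2) from P5 to P14. Cxcl14 from P14 to P24 was lost without any of 7 of the 8 libraries compared and by library size only (folds from -1.02 to -1.32, adjusted p up to 0.145), D030034A15Rik from P24 to P60 without P24 replicate 4 or P60 replicates 1, 2 or 4 (folds from -1.18 to -1.38, adjusted p 0.0675 to 0.105), and Klrb1a from P24 to P60 in 10 of 17 alternatives, with folds from -0.78 to -0.99. The cause was not tested. Depth limits the E17 levels, which rest on 2 to 80 counts per gene.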
